A study of Mus musculus with 4 samples.

Results

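Perp, Mdm2, Sesn1 and Sesn2 are 4 genes known as transcriptional targets of the tumour suppressor p53. They are described here by their ribosome footprints in mouse embryonic fibroblasts, as 4 of the 4878 genes in the deposited table. They were selected by name from results of these same libraries, in which Perp, Mdm2 and Sesn2 had more coding footprints after eIF1A knockdown and Sesn1 had fewer. Those differences are therefore given as values, with no test, and all 4 genes were kept. The cells, connective tissue cells grown from mouse embryos, were transfected with an siRNA negative control (Si-Negative control) or with an siRNA against eIF1A (Si-eIF1A), a translation initiation factor that takes part in scanning and in the choice of the start codon. Each group held 2 libraries, and the labels give the same range of passages for all of them. The labels name neither the strain, the sex nor the age of the embryos, and do not say whether the 2 libraries of a group came from separate cultures, so the spread between them may be technical. The design compares footprints between the groups to find mRNAs whose ribosome occupancy depends on eIF1A.

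p53 is a transcription factor that is held at a low level in unstressed cells and accumulates after DNA damage and other stresses, ribosomal stress among them. Its targets halt the cell cycle, start cell death, repair DNA and adjust metabolism. Mdm2 encodes the ubiquitin ligase that binds p53 and directs its degradation, so that p53 and its own target form a feedback loop. Perp encodes a small membrane protein of the PMP22 family that is needed for desmosomes in skin and takes part in p53-dependent death. Sesn1 and Sesn2 encode sestrins, stress proteins that lower mTORC1 activity through the GATOR complexes and help in the defence against peroxides. Sesn2 is also known as a target of the transcription factor ATF4, and Sesn1 as a target of FoxO factors. The leader of the longer Mdm2 mRNA is known to hold upstream open reading frames that hold back its translation.

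Of the 4 genes, 3 lie on chromosome 10 (RefSeq coordinates, build GRCm38.p6, the assembly known as mm10), namely Perp (18845071 to 18857073), Sesn1 (41810574 to 41908436) and Mdm2 (117688875 to 117710758). Sesn2 lies on chromosome 4 (132492804 to 132510456). The RefSeq promoter table (GRCm38.p6) holds 1 start site for Mdm2, 1 for Sesn2 and 2 for Sesn1. Footprints are given per gene, so neither the mRNAs of the 2 Sesn1 starts nor a longer and a shorter Mdm2 mRNA are separated. The 250 bases before each start were searched on both strands for the p53 half-site, a 10-base part of the element that p53 binds. Full elements were not searched for, and binding was not tested. Both matches are printed because the genes are known p53 targets. Each is shown in 30 bases, 5′ to 3′ on the strand of the gene, with the half-site in capitals.

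Mdm2, chr10:117710925-117710954, minus strand: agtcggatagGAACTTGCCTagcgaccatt

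Sesn1 second start, chr10:41887256-41887285, plus strand: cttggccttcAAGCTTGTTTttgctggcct

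A half-site occurred in 7.13% of the 32851 promoters in that table, and none lay before the Sesn2 start or the first Sesn1 start in this window. The CCAAT box, a common promoter element read here as CCAAT or ATTGG, lay before all 4 starts, and before 33.8% of all promoters. It is printed for the sestrins, whose footprints differed in opposite directions, to show what both promoters hold.

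Sesn1 first start, chr10:41810365-41810394, plus strand: gctgacactgtgATTGGcggacactgctcc

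Sesn1 second start, chr10:41887336-41887365, plus strand: ccgcgggccggcATTGGcgggcgcgcccgc

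Sesn2, chr4:132510596-132510625, minus strand: ttgtcgatgctgATTGGacggaaggttggc

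Sesn2, chr4:132510532-132510561, minus strand: aacaggcatctgATTGGctgcgccgtggga

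The ATF4 element TGATGNAA had no match before any of the 4 starts and matched 3.45% of all promoters. The FoxO element GTAAACA matched once before Mdm2 and in 3.17% of all promoters. The GC box GGGCGG matched before every one of the 4 starts and in 32.7% of all promoters, and the TATA box TATAAA before none of them and in 12.4%. No match of one motif overlapped a match of another before these starts.

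The libraries differed in depth and in where their reads fell. Depth over the table was 617663 reads in control replicate 1, 547916 in control replicate 2, 458191 in knockdown replicate 1 and 280649 in knockdown replicate 2. Reads in 5′ untranslated regions (5′ UTRs, the leaders before the main start codon) made up 11.6% and 13.7% of them in the controls and 20.0% and 32.4% in the knockdown libraries. All values below are the authors' normalized reads. Changes are differences of log2(normalized reads + 1), knockdown minus control, which understate the change of genes with few reads. The median coding change of all 4619 genes tested was -0.16. The genes for eIF1A were not analysed here, so the knockdown itself was not checked. A footprint level joins the amount of an mRNA with its translation, and fewer cells carrying an mRNA cannot be told apart from less of it per cell. Of 10 fibroblast markers only Vim and S100a4 were listed. Vim had 671 and 488 normalized coding reads in the controls and 1227 and 455 in the knockdown libraries (log2 change 0.38, limma adjusted p = 0.481). S100a4 fell from 150 and 135 to 18.3 and 17.6 (-2.92, limma adjusted p = 2.4e-05). No endothelial, leukocyte or muscle marker of the lists used was in the table, and of 9 epithelial markers only Dsp was. Of 6 neural markers Map2 and Nes were. Map2 fell from 65.9 and 55.3 to 15.3 and 6.38 normalized coding reads (log2 change -2.49, limma adjusted p = 0.000648), and Nes changed by -0.77 (limma adjusted p = 0.0796). The part of these markers in the results was not tested.

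Perp was the member with the fewest coding reads. Its coding sequence had 3.58 normalized reads in control replicate 1 and 8.64 in control replicate 2, against 33.6 in knockdown replicate 1 and 19.2 in knockdown replicate 2. Values of each group are given in that order from here on. Both knockdown libraries lay above both controls, and the 2 libraries of each group differed widely. The means were 6.11 ± 3.58 and 26.4 ± 10.2 (SD, n = 2), a log2 change of 1.99 ± 0.66 (SE from these 4 libraries). That exceeded the coding changes of Mdm2 and Sesn2 given below, but without control replicate 1 it was 1.45, under their 1.52 and 1.71. Only 73 of 4619 genes had a larger change in that direction. The knockdown value was 2.22 to 9.37 times the control value over the 4 pairings of a knockdown with a control library. The counts behind it were 15 control reads and 45 knockdown reads, a read ratio of 4.76 with a 95% counting interval of 2.60 to 9.19. The control mean of Perp is under the minimum of 10 normalized reads that genes needed on average, so the gene entered the tested set through its knockdown libraries.

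Mdm2 had the most even values. It had 30.1 and 26.8 normalized coding reads in the controls and 80.3 and 76.6 in the knockdown libraries. The groups did not overlap, and replicates differed by far less than the groups did. The means were 28.4 ± 2.33 and 78.5 ± 2.64 (SD, n = 2), a log2 change of 1.43 ± 0.09 (SE). Over the 4 pairings the knockdown value was 2.55 to 3.0 times the control value. The 73 control reads and 127 knockdown reads gave a ratio of 2.76 (95% counting interval 2.05 to 3.73). Of all genes tested, 248 had a larger change in that direction.

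Sesn2 resembled Mdm2 in its coding reads. It had 12.2 and 9.51 normalized reads in the controls and 36.6 and 30.3 in the knockdown libraries, again without overlap. The means were 10.8 ± 1.89 and 33.5 ± 4.45 (SD, n = 2), a log2 change of 1.54 ± 0.21 (SE). The knockdown value was 2.49 to 3.85 times the control value over the 4 pairings. From 28 control reads and 55 knockdown reads the ratio was 3.11 (95% counting interval 1.94 to 5.10).

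Sesn1 went the other way. It had 45.9 and 33.7 normalized coding reads in the controls and 3.05 and 14.4 in the knockdown libraries. Both knockdown libraries lay below both controls, and they differed more from each other than the controls did. The means were 39.8 ± 8.59 and 8.71 ± 8.00 (SD, n = 2), a log2 change of -2.35 ± 0.99 (SE). Only 101 of 4619 genes had a lower value of the change. Over the 4 pairings the control value was 2.35 to 15.0 times the knockdown value, the widest range of the 4 genes. The first knockdown library rests on 3 reads and the second on 9, against 103 reads in the controls together. The control reads were 5.41 times the knockdown reads (95% counting interval 2.97 to 10.8). The lowest value listed in a library is 1 read, and with 1 read taken off each value the ratio was 6.37 (3.32 to 13.7). Without knockdown replicate 1 the log2 change was -1.39, and without knockdown replicate 2 it was -3.32. With its knockdown mean under 10, Sesn1 entered the tested set through its controls.

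As background to these differences, 26.0% of the genes tested had both knockdown libraries above both controls in coding reads, as Perp, Mdm2 and Sesn2 did, and 40.1% had both below, as Sesn1 did. Since the members were picked for this pattern, nothing is read from their count, from their ranks among all genes or from their counting intervals. The members kept their direction in coding reads under every alternative that gave a value. As their groups did not overlap, leaving out a library or adding a replicate block could not have reversed it. The log2 changes were 1.45 to 2.53 for Perp and 1.32 to 1.63 for Mdm2. They were 1.28 to 1.79 for Sesn2 and -3.32 to -1.39 for Sesn1.

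**Figure D1:**
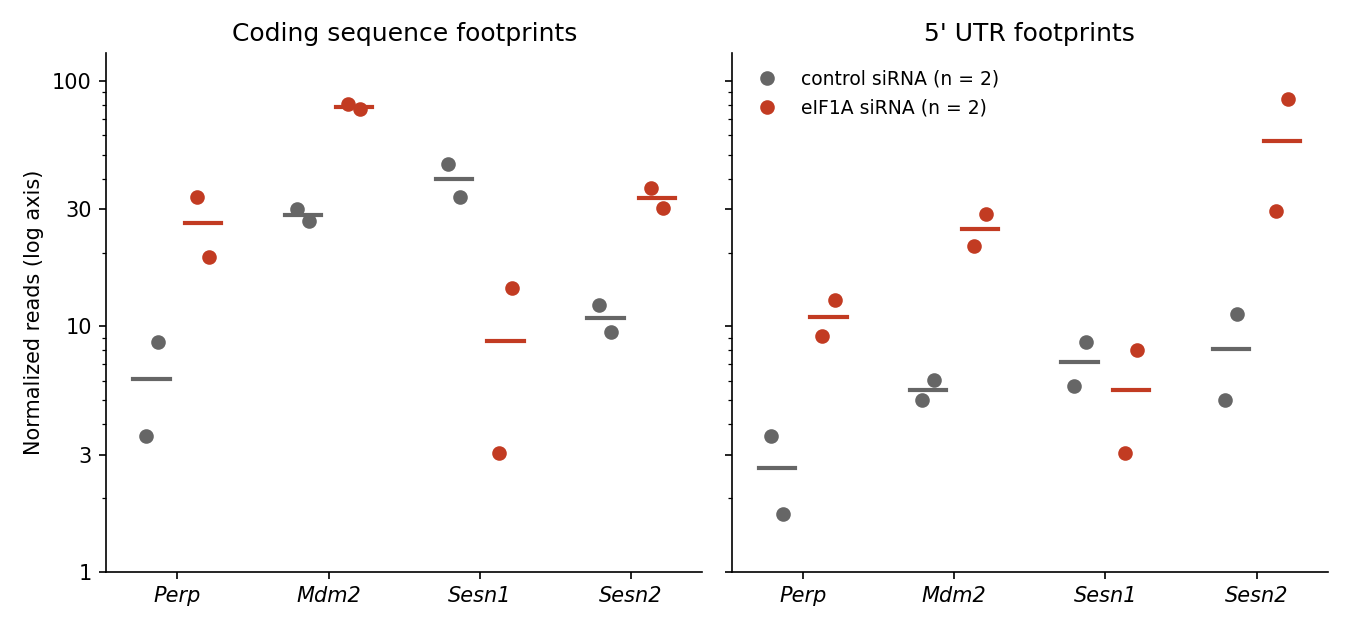
Normalized reads (log axis) of the 4 genes in the coding sequence (left) and in the 5′ UTR (right), with a dot for each library and a line at the mean of the 2 libraries of a group (grey, control siRNA; red, eIF1A siRNA). In coding reads the red and grey dots of each gene do not overlap, and Sesn1 alone lies lower after eIF1A siRNA, at a mean of 8.71 against 39.8.

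The summed coding reads of the 2 sestrins lay within the range of the controls in 1 knockdown library and just below it in the other. Whether the 2 changes are linked was not tested. Sesn1 and Sesn2 together had 58.0 and 43.2 normalized coding reads in the controls and 39.7 and 44.7 in the knockdown libraries. Sesn2 held 21.0% and 22% of the coding reads of the pair in the controls (95% Wilson intervals 13.5 to 31.1% and 12.8 to 35.2%). In knockdown replicates 1 and 2 it held 92.3% (79.7 to 97.4%) and 67.9% (49.3 to 82.1%). Reads were not divided by length, so these shares compare libraries and not the levels of the 2 sestrins. Sesn3, the third family member, was not analysed here.

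In the 5′ UTR, Perp, Mdm2 and Sesn2 were higher in the knockdown libraries as well. Mdm2 had 5.02 and 6.05 normalized 5′ UTR reads in the controls and 21.4 and 28.7 in the knockdown libraries. The groups did not overlap, and the log2 change was 1.99 ± 0.24 (SE, n = 2 per group). Sesn2 had 5.02 and 11.2 in the controls and 29.5 and 84.6 in the knockdown libraries. These groups did not overlap either, but the knockdown libraries lay far apart, and the log2 change was 2.57 ± 0.90 (SE). Without knockdown replicate 1 it was 3.32, and without knockdown replicate 2 it was 1.83. Perp had 3.58 and 1.73 against 9.15 and 12.8, from 7 control and 17 knockdown reads in all. Sesn1 had 5.73 and 8.64 against 3.05 and 7.98, from 18 and 8 reads, and its groups overlapped. The log2 changes of Perp and Sesn1 were 1.74 ± 0.43 and -0.42 ± 0.63 (SE), and neither gene reached the mean of 10 normalized 5′ UTR reads. Mdm2 and Sesn2 had control means of 5.53 and 8.13 in the 5′ UTR, so both reached that minimum only through their knockdown libraries.

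Leader footprints were higher in the knockdown libraries for most genes, so the members are set against that shift. Of the 2101 genes tested in the 5′ UTR, 67.4% had both knockdown libraries above both controls. The limma test at an adjusted p under 0.05 called 44.0% of them higher and 2.81% lower, and the median log2 change was 1.09. Relative to that median, Sesn2 was 1.48 and Mdm2 0.90 higher on the log2 scale, Perp was 0.65 higher, and Sesn1 lay at -1.51 from it. That median covers only genes that reached the 5′ UTR minimum, which Perp and Sesn1 did not. With no filter the median of all 4878 genes was lower, at 0.67, and limma called 1247 higher and 62 lower. The shift itself depends on the scaling. DESeq2 with its own 5′ UTR size factors called 139 genes higher and 214 lower in place of 924 and 59, and quantile normalization 452 and 375. Without control replicate 1 limma called 179 higher and 10 lower, and without control replicate 2 339 and 6. Under DESeq2 and quantile normalization the 5′ UTR change of Mdm2 was 1.02 by both, and it stayed above 0 for Sesn2 (at least 1.57).

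**Figure D2:**
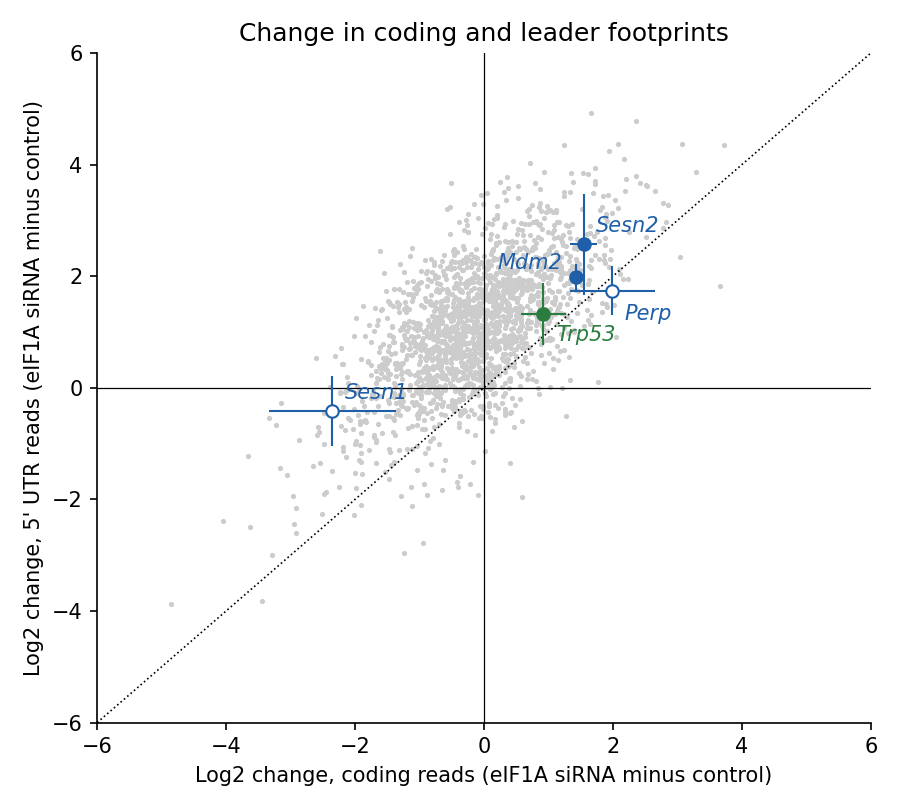
Log2 change (eIF1A siRNA minus control siRNA) in coding reads (x axis) and in 5′ UTR reads (y axis), for all genes tested in both (grey), for the 4 members (blue) and for Trp53 (green), with bars for the SE from 2 libraries per group, open symbols for members under the 5′ UTR minimum and a dotted line where both changes are equal. Sesn2, Mdm2 and Sesn1 lie above the dotted line, Sesn1 at -2.35 and -0.42, and Perp lies below it at 1.99 and 1.74.

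The division of reads between leader and coding sequence is given for each gene, and no difference between the genes was tested. In Mdm2 the 5′ UTR held 14.3% and 18.4% of the reads of both regions in the controls and 21.0% and 27.3% in the knockdown libraries. The groups did not overlap, but the 95% Wilson intervals did (7.10 to 26.7% in control replicate 1 and 18.0 to 39.0% in knockdown replicate 2). In Sesn1 the share was 11.1% and 20.4% against 50% and 35.7%, the last 2 from only 6 and 14 reads. In Sesn2 it was 29.2% and 54.2% against 44.6% and 73.6%, and in Perp 50% and 16.7% against 21.4% and 40.0%. These groups overlapped in both genes.

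Set against other genes, the log2 ratio of leader to coding reads changed less in Mdm2 than in most. Its change was 0.55 ± 0.31 (SE), where the median of 1907 genes was 1.23, and 0.99 over all genes with no filter. The ratio of Sesn2 changed by 1.03 ± 1.11, of Perp by -0.25 ± 1.10 and of Sesn1 by 1.94 ± 0.61, and Perp and Sesn1 were under the 5′ UTR minimum. Among the genes tested, limma called the ratio of 19.4% higher and of 0.0524% lower. Under quantile normalization of each region, which removes the common shift, limma called 0 higher and 1 lower, and the ratios of Mdm2 and Sesn2 changed by -0.54 and -0.08. Over all genes, limma called 3 ratios without control replicate 1, 0 without control replicate 2 and 1175 without knockdown replicate 1. Without control replicate 1 the change of Perp turned to 0.66, and without knockdown replicate 1 to 0.36.

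**Figure D3:**
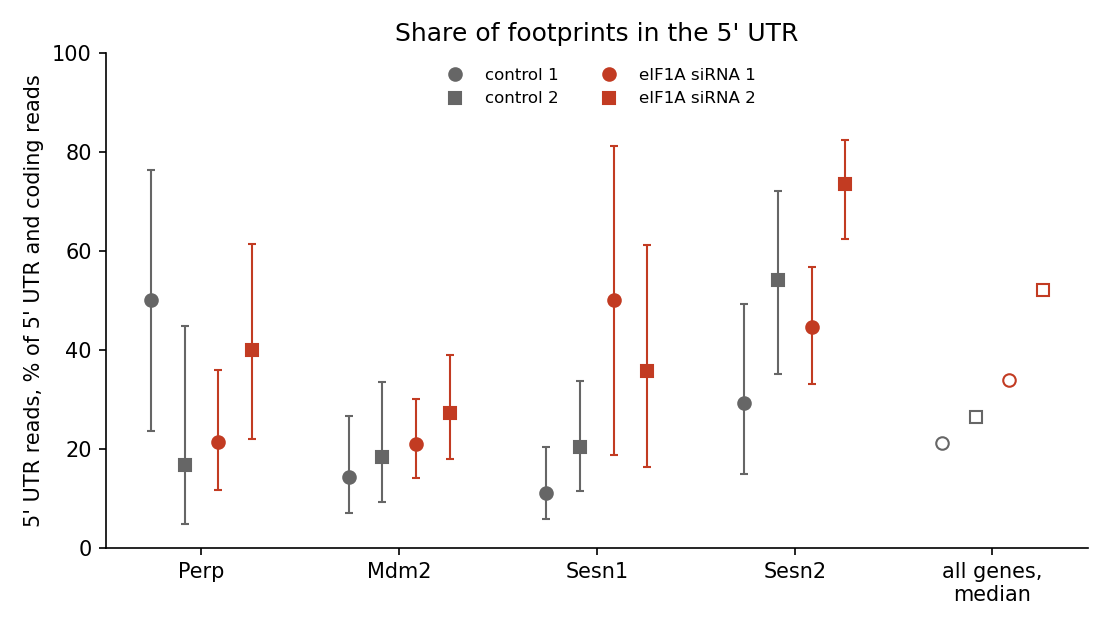
Share of 5′ UTR reads among the 5′ UTR and coding reads of each gene in each library, in percent, with 95% Wilson intervals that cover counting error only (grey, control siRNA; red, eIF1A siRNA; circles, replicate 1; squares, replicate 2), and the median of 1907 genes as open symbols. The median gene moved from 21.1% and 26.3% in the controls to 33.8% and 52.0%, and Mdm2 stayed under it in all 4 libraries.

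The genes whose coding profile lay nearest to each member were found by the Euclidean distance between log2 profiles, each centred on its own mean, over the 4 libraries and 4549 named genes. Nearest to Perp were Rcl1 (0.20), Ppan (0.27) and Bloc1s4 (0.39). Nearest to Mdm2 were Psmd8 (0.10), Zfp655 (0.10) and Mars (0.12), and nearest to Sesn2 were Tomm40 (0.06), Ube2l6 (0.07) and Ube2a (0.08). Mdm2 itself was the gene at rank 16 from Sesn2, at a distance of 0.21. Sesn1 had no neighbour as close, the nearest being Epm2aip1 (0.57), Pdcd4 (0.60) and Manba (0.64). With 4 libraries such distances describe the values and carry no test.

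Trp53, the gene for p53 itself, rose in coding reads. It had 123 and 116 normalized coding reads in the controls and 290 and 177 in the knockdown libraries, and the groups did not overlap. The means were 119 ± 4.74 and 234 ± 79.7 (SD, n = 2). On the log2 scale the rise was 0.92, with a limma adjusted p = 0.0334 over all genes. Its SE was 0.36 from these 4 libraries, as given for the members, and 0.31 by limma, which borrows spread from other genes. From here on the SE of a log2 change is limma's, so it does not compare with the SE of the members. The 5′ UTR of Trp53 had 53 and 77.8 normalized reads against 116 and 227 (log2 change 1.32, limma adjusted p = 0.011). The 5′ UTR call was lost in 7 of 15 alternatives, among them DESeq2, where the change was 0.18, quantile normalization (0.33), TMM factors and the omission of either control. The coding call was lost without control replicate 1, without control replicate 2 and without knockdown replicate 1, and over all alternatives the log2 change ranged from 0.57 to 1.28.

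Other p53 targets were mixed. Of 81 further targets on the lists, 33 were in the table and 30 could be tested in coding reads, of which 8 rose, 3 fell and 19 did not pass. That is 26.7% higher and 10.0% lower, where limma called 10.6% of all genes tested higher and 18.7% lower. The median change of these 30 genes was 0.19, against -0.16 for all genes. With TMM factors, under which limma's calls over all genes moved from 488 higher and 864 lower to 786 and 780, 10 of the 30 were higher and 3 lower. Without control replicate 1, 2 were higher and 1 lower. Without control replicate 2, limma called 0 of the 30 (9 at an unadjusted p under 0.05), and over all genes it called 11. Without knockdown replicate 1, 7 of the 30 were higher and 7 lower. The edgeR test with TMM called 13 higher and 3 lower, and DESeq2 9 and 3.

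Among targets of cell death, 4 of 7 tested rose, none fell and 3 did not pass, with a median of 0.95. Limma called 57.1% of them higher, where it called 10.6% of all genes tested higher and 18.7% lower. Rps27l, a ribosomal protein paralogue induced by p53, had 34.4 and 34.6 normalized coding reads in the controls and 116 and 144 in the knockdown libraries (log2 change 1.87 ± 0.31 SE, limma adjusted p = 0.0005). Its reads may be shared with its close copy Rps27. Bax, which permeabilises the outer mitochondrial membrane, had 19.3 and 22.5 against 45.8 and 54.3 (1.22 ± 0.35, limma adjusted p = 0.0157). Bid, which activates Bax, and the death receptor Tnfrsf10b rose by 1.61 and 0.95. The control mean of Bid was 5.82, under 10, so it entered the tested set through its knockdown libraries. Leaving out control replicate 2 ended all 4 calls, leaving out control replicate 1 ended those of Bax, Bid and Tnfrsf10b, and the calls of Bid and Tnfrsf10b also ended without knockdown replicate 1 and when 1 read was subtracted from every value.

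Among targets of arrest and of feedback on p53, 2 of 5 rose and 3 did not pass, with a median of 0.98. That is 40% higher and 0% lower, against 10.6% and 18.7% of all genes tested. Both calls ended without control replicate 1 and without control replicate 2. Plk2, a polo-like kinase, had 41.6 and 60.5 against 135 and 91.0 normalized coding reads (log2 change 1.13 ± 0.33 SE, limma adjusted p = 0.0171). Gtse1, which binds p53 and lowers its activity, had 59.5 and 55.3 against 110 and 118 (0.98 ± 0.30, limma adjusted p = 0.0213). The p53 ubiquitin ligase Rchy1 had 7.17 and 8.64 against 18.3 and 17.6 (limma adjusted p = 0.117), and the phosphatase Ppm1d, also in the feedback on p53, 34.4 and 29.4 against 24.4 and 23.9 (limma adjusted p = 0.448). Cdkn1a, which encodes the cell cycle inhibitor p21, and Mdm4, the partner of Mdm2, were not analysed here.

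Targets of metabolism and repair, the set to which the sestrins belong, gave 0 rises and 1 fall among 10 by limma, with 5 at an unadjusted p under 0.05 and a median of -0.10. DESeq2 also called 0 higher and 1 lower, and edgeR with TMM 1 and 1. The counts were 1 and 3 without knockdown replicate 1, 1 and 4 with a replicate block, and 0 and 0 without control replicate 1 or control replicate 2 (2 and 0 genes at an unadjusted p under 0.05). Dgka, a diacylglycerol kinase, fell from 23.6 and 36.3 to 7.12 and 6.38 normalized coding reads (log2 change -1.97 ± 0.48 SE, limma adjusted p = 0.00658). Of the other targets, 2 of 8 rose and 2 fell, which is 25% in each direction. Over all genes tested, limma called 10.6% higher and 18.7% lower. The ephrin receptor Epha2 rose from 41.6 and 71.7 to 207 and 267 (2.09 ± 0.32, limma adjusted p = 0.000356), and the growth factor Csf1 rose by 1.13. The receptor Notch1 fell from 187 and 274 to 51.9 and 70.2 (-1.89 ± 0.31, limma adjusted p = 0.000522). Ndrg1, also known as a hypoxia gene, fell by 1.91 on the log2 scale. With knockdown means of 6.75 and 9.58, under 10, Dgka and Ndrg1 entered the tested set through their controls. None of the calls named in this paragraph held under every omission of a library.

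Leaders of the other p53 targets followed the common shift. Of 18 tested in the 5′ UTR, 9 rose and 1 fell, which is 50% and 5.56% against 44.0% and 2.81% of all genes tested. The median log2 change was 1.46 against 1.09 for all genes tested. Epha2 (3.22), Thbs1 (3.18), an inhibitor of vessel growth, and Csf1 (2.98) changed most among them. The controls of Epha2 (1.43 and 1.73) and Thbs1 (8.60 and 9.51) lay under 10, so both entered this set through their knockdown libraries. The same holds for Plk2, Rchy1, Rps27l, Rap2b and Tap1, which were also called higher. Most of the higher calls are therefore of genes let in by the group where they are high, and nothing is read from their count or median. Ndrg1 fell by 1.33 on the log2 scale, a call lost in 5 of 14 alternatives. By DESeq2 3 were higher and 1 lower, and limma called 4 higher without control replicate 1 and 16 without knockdown replicate 1. In the leader-to-coding ratio 1 of 16, Thbs1, was higher, against 19.4% of all genes tested. Without knockdown replicate 1, 9 were higher, and without control replicate 1, without control replicate 2 and under quantile normalization 0 were (1, 0 and 3 at an unadjusted p under 0.05 by limma).

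Among 22 tested proteins that act on p53, Trp53 included, 2 rose, 2 fell and 18 did not pass, which is 9.09% in each direction against 10.6% higher and 18.7% lower over all genes. Rpl11, a ribosomal protein that binds Mdm2 and blocks its action on p53, had 102 and 96.8 normalized coding reads in the controls and 432 and 211 in the knockdown libraries (log2 change 1.60 ± 0.33 SE, limma adjusted p = 0.00262), though reads of ribosomal protein genes can be shared with pseudogene copies. The ubiquitin ligase Ube4b, which acts with Mdm2 on p53, fell from 176 and 256 to 92.6 and 63.8 (-1.45 ± 0.31, limma adjusted p = 0.00319), while its 5′ UTR reads rose by 1.5 on the log2 scale (limma adjusted p = 0.00646), a call lost by DESeq2 (0.36), under quantile normalization (0.44) and without control replicate 1 or control replicate 2. Cul4b, a cullin scaffold, fell by 1.07 on the log2 scale. Leaving out control replicate 2 ended these 3 calls, and leaving out control replicate 1 ended those of Rpl11 and Cul4b.

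In the pathway through which sestrins act on mTORC1, 2 of 20 tested genes rose, 3 fell and 15 did not pass. These shares of 10% and 15% lie near those over all genes, 10.6% and 18.7%. Sec13 and Seh1l, both subunits of GATOR2, the complex that sestrins bind, differed in opposite directions. Sec13 rose by 1.14 and Seh1l fell by 0.99 on the log2 scale, and both proteins also serve in the nuclear pore. Depdc5, a subunit of the GATOR1 complex that holds mTORC1 back, fell from 40.8 and 62.2 to 13.2 and 20.8 normalized coding reads (-1.55 ± 0.38 SE, limma adjusted p = 0.00738). Rptor, the defining subunit of mTORC1, fell from 49.4 and 84.7 to 30.5 and 9.58 (-1.85 ± 0.46, limma adjusted p = 0.00744). Flcn, which acts on the Rag GTPases, rose by 1.19, a call lost in 6 of 14 alternatives. Leaving out control replicate 1 or control replicate 2 ended all 5 calls, and DESeq2 did not call Seh1l.

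Lists for other known inputs and relatives of the members are set against 10.6% higher and 18.7% lower over all genes, and no difference between lists was tested. Of 20 tested ATF4 targets other than Sesn2, a list that counts Atf4 itself, 14 rose and none fell. Their median was 1.94, and Sesn2 at 1.54 lies below that median. The controls of Atf4, Trib3, Nupr1 and Cth, all called higher, lay under 10. These genes entered the tested set through their knockdown libraries. FoxO factors and targets other than Sesn1 gave 1 rise and 1 fall among 9 (11.1% each), with a median of -0.29. Bnip3, a mitophagy receptor, fell by 3.22 and Cited2, a transcriptional coregulator, rose by 1.31. Among 19 antioxidant genes, 3 rose and 2 fell (15.8% and 10.5%), with Txnrd1, a thioredoxin reductase, at 1.46 and Prdx5, a peroxiredoxin, at -1.68. Of 7 genes of desmosomes and the PMP22 family other than Perp, 2 fell (28.6%) and none rose. These were Emp2 (-1.79) and Emp3 (-1.18), relatives of Perp, and DESeq2 called neither. With knockdown means under 10, Bnip3 and Emp2 entered the tested set through their controls. Without control replicate 2, limma called 0 genes of these 4 lists, with 13 ATF4 targets, 2 FoxO genes, 2 antioxidant genes and 0 desmosome and PMP22 genes at an unadjusted p under 0.05.

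**Figure D4:**
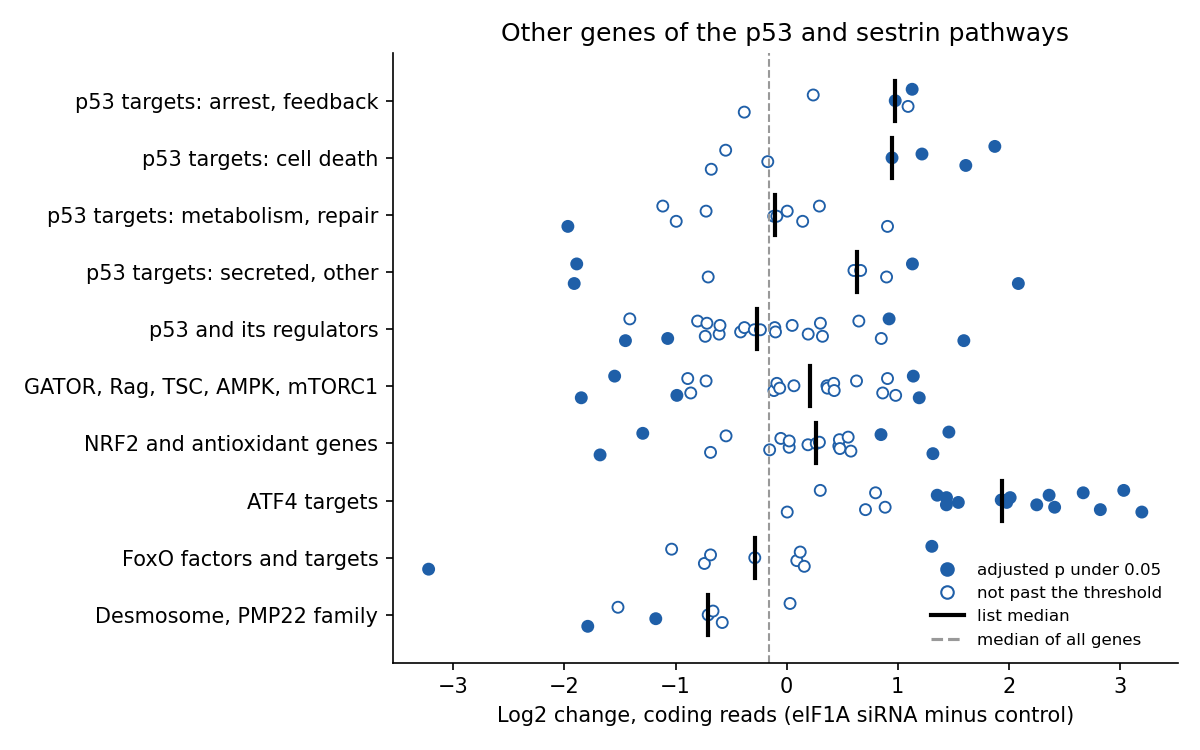
Log2 change in coding reads (eIF1A siRNA minus control siRNA) of each tested gene of 10 lists without the 4 members, with filled dots for limma adjusted p under 0.05, black lines for list medians and a dashed line at the median of all genes (-0.16). ATF4 targets, with Atf4 itself counted, lie at a median of 1.94, p53 targets of cell death at 0.95 and p53 targets of metabolism and repair at -0.10.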

How the data were processed

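Ribosome-protected fragments of 4 libraries, 2 per group, were analysed from 1 deposited table of normalized read counts per gene for 5′ UTR and coding sequence. The submitters' processing notes name mm10, cutadapt, Bowtie, TopHat2, HTSeq and DESeq2, with neither roles nor versions. The values are a signal that the authors deposited after normalization. All of them (100%) were whole multiples, within 0.001 reads, of what 1 read was worth in their library (0.717 to 1.60), which gave back read counts. The lowest value was 1 read, so a listed 1 may stand for 0 or 1, and each gene had at least 26 reads in some library.

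Members and lists were chosen with earlier results of these data known. log2(value + 1) was fitted with limma 3.58.1 (R 4.3.3) over the 4 libraries without covariates, for genes with a mean of at least 10, with Benjamini-Hochberg adjustment over all genes tested and a threshold of 0.05. The script was tested on simulated data. p-values measure the spread between these libraries. Intervals cover counting error only and treat each read as independent. Reads of 1 PCR product are not independent molecules, so the intervals may be too narrow. For each list up to 4 called genes in each direction, by smallest adjusted p, were named with values, and for each member the 3 nearest profiles. Rchy1, Ppm1d and genes named in the 5′ UTR were chosen after their values were seen. On the recovered reads edgeR 4.0.16 called 1517 coding genes, against 1352 by limma, and DESeq2 1.42.0 called 988. RefSeq names matched 4668 symbols directly and 203 as older names, and 7 did not match. Alternatives were other pseudocounts, filters, scalings and tools, 1 read less per value, a replicate block and each library left out. RNA levels were not used.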

Additional observations from a re-analysis of the deposited data

How the results depend on the processing

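Coding changes of the 4 members kept their direction under every alternative run. Since their groups did not overlap, this was fixed in advance for each library left out and for the replicate block. Mdm2 left the spread between its replicates with TMM factors (1.60), quantile normalization (1.56), edgeR with TMM (1.62) and DESeq2 (1.63), all scalings that move the median of all genes (from -0.16 to 0.0044 with TMM). In the 5′ UTR a pseudocount of 5 gave 1.06 for Perp and 1.5 for Mdm2, quantile normalization gave 0.79 for Perp, 1.02 for Mdm2 and -1.42 for Sesn1, and edgeR with TMM and DESeq2 gave 2.33 and 1.02 for Mdm2. Without knockdown replicate 1 Sesn1 turned to 0.16. In the leader-to-coding ratio, quantile normalization gave -0.54 for Mdm2, -0.082 for Sesn2 and 0.79 for Sesn1, and Perp turned to 0.66 without control replicate 1 and to 0.36 without knockdown replicate 1. The cause was not tested. Leaving out 1 library gave ranges of 1.45 to 2.53 for Perp, 1.35 to 1.52 for Mdm2, -3.32 to -1.39 for Sesn1 and 1.38 to 1.71 for Sesn2 in coding reads. In the 5′ UTR they were 1.37 to 2.12, 1.78 to 2.19, -0.99 to 0.16 and 1.83 to 3.32, and in the ratio -1.16 to 0.66, 0.31 to 0.79, 1.46 to 2.41 and 0.15 to 1.91, in the same order.

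Counts of called genes moved more. A mean of at least 50, which leaves fewer genes to test, gave 788 coding, 232 5′ UTR and 111 ratio calls, with 2 p53 targets higher in the 5′ UTR. DESeq2 called 353 genes in the 5′ UTR, with 3 p53 targets higher, and quantile normalization 1 ratio and 5 p53 targets higher in the 5′ UTR. With no filter 629 ratios were called. With edgeR and TMM 13 p53 targets were higher in coding reads. Leaving out 1 library gave 11 to 1729 coding calls (294 without control replicate 1 and 11 without control replicate 2), 189 to 1396 in the 5′ UTR and 0 to 1175 in the ratio. For p53 targets it gave 0 to 10 higher and 0 to 7 lower in coding reads and 4 to 16 higher in the 5′ UTR. Of 33 named coding calls, 33 were lost without control replicate 2, 22 without control replicate 1, 7 without knockdown replicate 1, 5 by DESeq2, 4 with 1 read subtracted, 1 without a filter and 1 by quantile normalization. None was lost under the other alternatives, where 33 or, at a mean of at least 50, 19 could be tested. The cause was not tested.

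Replicate numbers are shared by the groups, but nothing in the labels ties equal numbers, and the replicate differences correlated at 0.26 in coding and -0.06 in 5′ UTR reads. A replicate block gave 1921 coding, 1258 5′ UTR and 851 ratio calls, with 7 p53 targets lower in coding reads and 14 higher in the 5′ UTR. The ratio was not run with edgeR or DESeq2. Depth limits Perp and Sesn1 most, since single values rest on as few as 3 coding reads and 2 5′ UTR reads.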
